A study of Mus musculus with 24 samples.

Results

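The epidermal differentiation complex is a cluster of genes on mouse chromosome 3 that encode building blocks of the cornified envelope, the cross-linked protein shell of the outermost skin cells. Accessible chromatin was described here at 61 of its protein-coding genes, namely 21 Lce, 15 Sprr and 14 S100a genes, 7 genes of the fused type (Flg, Flg2, Hrnr, Rptn, Tchh, Tchhl1 and Crnn), and Lor, Ivl, Crct1 and Smcp. They were taken by name from the protein-coding genes of GENCODE M21 lying between 90 and 94 Mb of chromosome 3 in GRCm38, and an ATAC-seq peak belonged to the complex when it overlapped a gene body or the 5 kb on either side. By this rule 691 of 708357 peaks in 12 lists were members. Merged over the 5 skin lists they made 77 of 98240 regions, over the 7 culture lists 92 of 97078, and over all 12 lists 107 of 134385.

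The complex is switched on when keratinocytes leave the basal layer. Involucrin (Ivl) and the small proline-rich (Sprr) proteins are laid down and cross-linked early in envelope formation, loricrin (Lor) supplies most of the finished envelope, and late cornified envelope (Lce) proteins join last. Filaggrin (Flg) and its fused-type relatives carry an S100 domain joined to long repeats and bundle or cross-link keratin filaments, whereas the S100a genes encode small calcium-binding proteins, several of which are also made outside the epidermis. AP1 factors are long-known activators of many of these genes.

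The study followed epidermal stem cells (EpdSCs) in which the hair follicle factor SOX9 was re-expressed. The skin samples came from male CD1 mice carrying K14rtTA and TRE-myc-Sox9, in which the Krt14 promoter drives the doxycycline-dependent transactivator, and were sorted as CD31-, CD45-, CD117- and CD140a-negative, CD49f-high, CD34-negative, Ly6A-high cells. Mice were at postnatal day 21 without induction (D0), and at days 28, 35 and 63 after 1 (W1), 2 (W2) and 6 (W6) weeks of doxycycline. The W12 samples came from neonatal skin of this genotype grafted on Nude hosts, left to heal and then induced for 12 weeks, so that time and tissue source cannot be told apart there. Each replicate pooled several animals. The culture samples were Krt14-rtTA EpdSCs given lentivirus: noDOX and WT-SOX9 share the full-length TRE-myc-Sox9 construct without and with doxycycline (1 µg/ml, day 3 where a label gives the day), ΔHMG-SOX9 lacks the DNA-binding HMG domain, ΔTA-SOX9 lacks the transactivation domain, AFOS carries TRE-FLAG-AFOS, a dominant-negative form of FOS that blocks AP1, SOX9+AFOS carries TRE-FLAG-AFOS with TRE-myc-Sox9, and SOX9+ARID1a carries TRE-ARID1a, a SWI/SNF subunit, with SOX9. According to the methods, the AFOS and ARID1a viruses went into Krt14-rtTA cells or into cells that already carried the Sox9 transgene, so that SOX9+AFOS and SOX9+ARID1a may differ from noDOX in how SOX9 was supplied. The only untreated list, noDOX, served all 6 arms, whose comparisons are therefore not independent.

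Each group was 2 replicate samples merged by the authors into a single peak list. No replicate spread could be obtained and no difference between lists was tested: intervals on shares are 95% Wilson intervals, which cover counting error alone and treat neighbouring regions as independent although they share a list. Read depth is unknown. Peak scores are in the normalised units of the lists and every list starts just above a score of 3, so a missing peak is a score under the floor of that list and not a closed site.

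Some lists stood apart from their labels. A peak confined to the last exon of Sox9, as an integrated coding sequence would give, scored 13.5 at D0, 15.1 at W2, 9.22 at W6 and 8.84 at W12, but the W1 list had none. In culture it was weak in noDOX (3.71), SOX9+AFOS (5.11) and SOX9+ARID1a (3.71) and missing in AFOS, ΔHMG-SOX9 and ΔTA-SOX9, and also in WT-SOX9, so that this peak does not check the label of the WT-SOX9 list. The lists labelled AFOS, SOX9+AFOS and SOX9+ARID1a held 5, 6 and 6 peaks confined to Arid1a exons, against 0 or 1 in every other list. Among all regions, those opened in the list labelled AFOS carried the AP1 match TGACTCA more often (30.0%) than those closed or halved there (18.3%), whereas in SOX9+AFOS the shares were 4.32% and 35.2%. Values for these lists are given by label. The promoters of Krt5 and Krt14 had a peak in every list, and 8 or 9 of 10 basal, 3 of 6 suprabasal, 3 to 6 of 6 hair follicle stem cell, 0 or 1 of 5 immune, 0 to 2 of 3 endothelial, 1 or 2 of 3 fibroblast and 1 to 3 of 4 melanocyte marker promoters did so. The melanocyte gene Dct scored 38.0, 28.6, 37.4, 25.3 and 20.1 from D0 to W12. In culture Dct (17.7) and Mlana (4.49) had a promoter peak only in SOX9+AFOS, and whether its cells differed in type was not tested.

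In what follows a region is named by its nearest member gene and the distance in bp of its centre from that gene's annotated start, with a plus sign for downstream. Most regions lay outside transcripts: of the 77 skin regions 47 (61.04%) were intergenic, 17 intronic, 6 in a coding exon, 6 in a UTR and 1 in a noncoding exon. Their widths ran from 200 to 2095 bp with a median of 494 bp, and 23 lay within 1 kb of a member's start. Of the 92 culture regions 57 were intergenic, 20 intronic, 11 in a UTR, 3 in a coding exon and 1 in a noncoding exon, with a median width of 585 bp, and 27 lay within 1 kb of a member's start. Accessible starts were few among Lce, Sprr and fused-type genes and more common in the rest. At D0, 16 of 61 members (26.2%) had a peak within 1 kb of the start, compared with 56.1% of 21951 protein-coding genes. By family these were 1 of 21 Lce, 1 of 15 Sprr, 2 of 7 fused-type, 9 of 14 S100a and 3 of the 4 remaining genes. The peak near the starts of both S100a1 and S100a13 was counted for each. No skin region lay near 18 genes (11 Lce, 5 Sprr and 2 fused-type) and no culture region near 14 (9 Lce, 2 Sprr and 3 fused-type). Reads from near-identical copies, such as the Sprr2 and Lce1 genes, may not be placed uniquely, so that missing peaks at these genes are uncertain.

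The sequences of the regions on which the patterns turn are shown first, as the central 200 bases of each region, on the plus strand of GRCm38 (RefSeq GRCm38.p6). Capitals mark every match to the motif letters searched on both strands (TGACTCA for AP1, ACAATGG or ACAATAG for SOX, AGATAA for GATA factors, TGTGGT for RUNX, CCACACCC or CCACGCCC for KLF, AACCNGGTT for GRHL and TTGCNNAA for CEBP). S100a6 +16604 (chr3:90629387-90629586) held some of the highest member scores in skin and in culture, SOX9+AFOS excepted, Lce1l -4597 (chr3:92855784-92855983) was lost in skin, Lce3f -5311 (chr3:92986816-92987015) and Sprr3 +3383 (chr3:92455238-92455437) were gained in skin and weakened in WT-SOX9 culture, and Lce1d -4689 (chr3:92691800-92691999) and Sprr2d -158 (chr3:92338883-92339082) were gained late in skin. The capitals in these 6 are AP1 matches, with a pair of matches each in S100a6 +16604 and Lce1d -4689. They were chosen among windows that hold a match and do not stand for the rest: of the 32 windows read for named regions, 11 held an AP1 match and 13 no match of any kind. Among the latter were S100a4 -4186, lost in skin, Lce3a +5656, gained late, and the differently centred culture windows of Sprr3 and Lce3f.
S100a6 +16604: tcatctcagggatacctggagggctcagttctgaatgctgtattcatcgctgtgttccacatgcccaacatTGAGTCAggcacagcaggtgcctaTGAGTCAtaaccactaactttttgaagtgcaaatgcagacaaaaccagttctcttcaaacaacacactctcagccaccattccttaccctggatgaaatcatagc
Lce1l -4597: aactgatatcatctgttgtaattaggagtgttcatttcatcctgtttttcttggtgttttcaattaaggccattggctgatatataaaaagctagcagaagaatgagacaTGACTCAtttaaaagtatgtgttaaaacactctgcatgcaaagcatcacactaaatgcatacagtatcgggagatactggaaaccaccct
Lce3f -5311: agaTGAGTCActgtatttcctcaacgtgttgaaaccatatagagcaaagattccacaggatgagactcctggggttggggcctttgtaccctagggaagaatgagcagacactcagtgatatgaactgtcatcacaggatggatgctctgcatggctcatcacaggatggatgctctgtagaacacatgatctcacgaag
Sprr3 +3383: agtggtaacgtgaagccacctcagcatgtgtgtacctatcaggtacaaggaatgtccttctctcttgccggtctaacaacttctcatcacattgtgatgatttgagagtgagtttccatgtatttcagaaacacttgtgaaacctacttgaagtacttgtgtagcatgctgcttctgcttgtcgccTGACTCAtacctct
Lce1d -4689: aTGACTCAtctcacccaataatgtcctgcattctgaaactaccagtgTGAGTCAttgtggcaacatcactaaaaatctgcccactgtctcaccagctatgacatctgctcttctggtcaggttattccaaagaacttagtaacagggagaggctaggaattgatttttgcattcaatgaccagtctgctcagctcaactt
Sprr2d -158: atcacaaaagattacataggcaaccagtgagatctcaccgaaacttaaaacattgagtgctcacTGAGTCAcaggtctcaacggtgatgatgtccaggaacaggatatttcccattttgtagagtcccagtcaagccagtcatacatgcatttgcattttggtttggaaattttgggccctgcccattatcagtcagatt

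A second set shows culture regions that behaved differently between arms, and the skin region with the deepest temporary fall. All of them hold a match and do not stand for the rest. No match was found in S100a11 -3043, closed in WT-SOX9 and SOX9+AFOS, or in S100a8 -4546, opened in WT-SOX9. S100a9 -125 (chr3:90695747-90695946) closed only in WT-SOX9 and its capitals are a RUNX match, Sprr2i +2737 (chr3:92410629-92410828) closed in WT-SOX9 and SOX9+AFOS and its capitals are a CEBP match, S100a11 +2378 (chr3:93522767-93522966) opened in WT-SOX9 and carries AP1 and RUNX matches, and Sprr2a3 -4046 (chr3:92281272-92281471) dropped between D0 and W6 and carries AP1 and GATA matches.
S100a9 -125: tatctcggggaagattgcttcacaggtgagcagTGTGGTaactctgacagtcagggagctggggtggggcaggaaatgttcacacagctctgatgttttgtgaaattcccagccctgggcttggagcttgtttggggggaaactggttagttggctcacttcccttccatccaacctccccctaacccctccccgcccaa
Sprr2i +2737: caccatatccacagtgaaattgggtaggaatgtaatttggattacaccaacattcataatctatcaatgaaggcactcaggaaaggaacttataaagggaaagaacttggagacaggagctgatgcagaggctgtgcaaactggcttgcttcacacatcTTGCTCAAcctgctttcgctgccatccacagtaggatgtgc
S100a11 +2378: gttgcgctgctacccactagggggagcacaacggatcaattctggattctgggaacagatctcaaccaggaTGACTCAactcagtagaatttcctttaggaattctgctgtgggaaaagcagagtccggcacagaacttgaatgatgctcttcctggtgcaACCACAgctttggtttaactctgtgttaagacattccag
Sprr2a3 -4046: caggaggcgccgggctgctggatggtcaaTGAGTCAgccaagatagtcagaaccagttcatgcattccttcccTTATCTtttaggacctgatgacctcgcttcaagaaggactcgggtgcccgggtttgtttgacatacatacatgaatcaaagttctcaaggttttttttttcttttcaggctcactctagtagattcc

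In the skin, the question was how the complex behaved while EpdSCs expressing SOX9 took on a hair follicle fate. The complex gained member peaks as the lists themselves grew. From D0 to W12 the lists held 49, 46, 61, 64 and 67 of them, which was 0.0855%, 0.0796%, 0.0952%, 0.0843% and 0.0937% of each list. Peaks were static, meaning present at all 5 times, at 34 of 77 regions (44.2%, interval 33.6 to 55.3), where all regions gave 37.8%. They were gained by W2 and kept at 12 (15.6%, interval 9.15 to 25.3, all regions 7.99%), lost by W2 and not regained at 5 (6.49%, interval 2.81 to 14.3, all regions 5.59%), and gained after W2 at 3 (3.90%, interval 1.33 to 10.8, all regions 6.89%). With a score of at least 5, the member share lost by W2 and not regained was 1.64%, which is not comparable with the 5.59%. The share of static regions and the shares lost and gained late had intervals that held the value of all regions, while the share gained by W2 lay above it. With no flank around the genes, the static share lay above its interval and above all regions, whose share the flank does not change. With the highest of the lists' lowest -log10 q values, 14.5, applied to every list, 1 of 62 member regions (1.61%, all regions 3.76%) was gained by W2 and kept, and 9 of 62 (14.5%, all regions 5.63%) were gained after W2. The timing of the gains therefore depends on this setting.

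**Figure D1:**
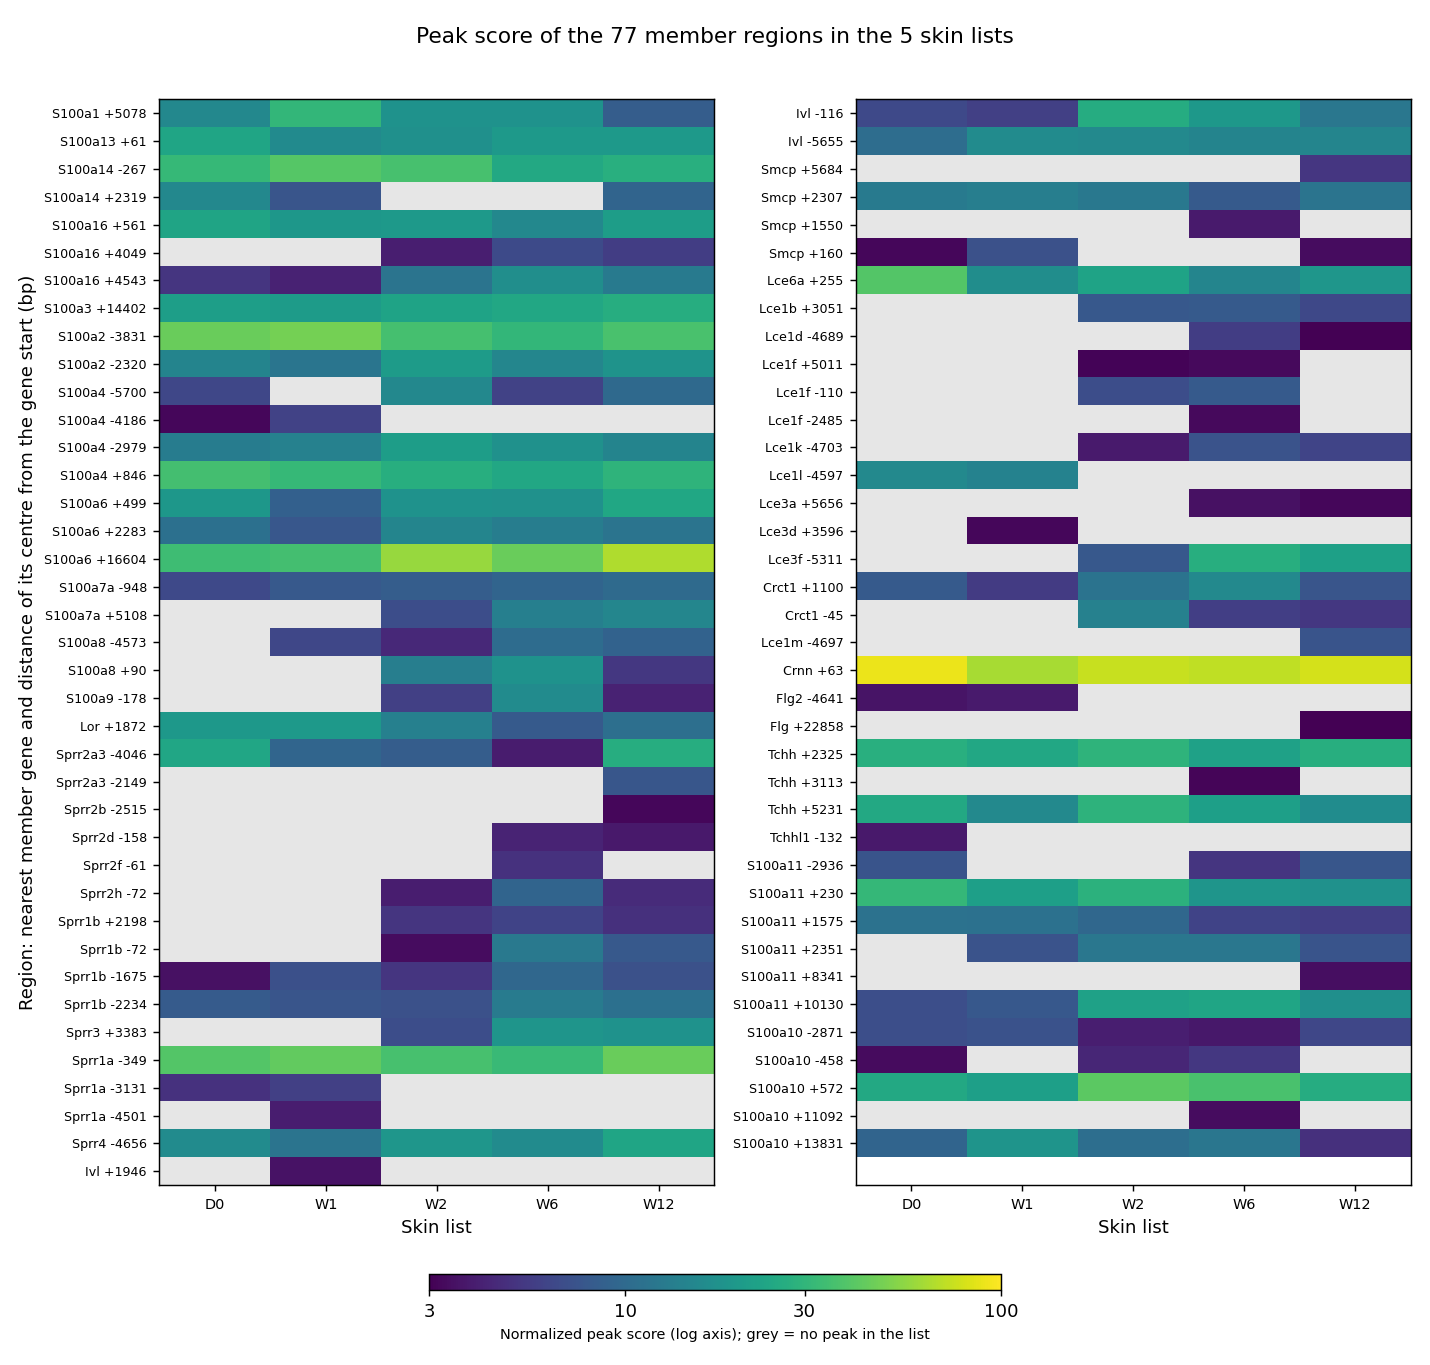
Normalised peak scores of the 77 skin regions, in chromosome order down the vertical axis and continued in the right panel, in the 5 skin lists on the horizontal axis. Colour gives the score on a log scale from 3 (dark) to 100 (yellow), and grey cells have no peak. The S100a rows at both ends are mostly coloured at all 5 times, the Sprr and Lce rows are largely grey at D0 and W1, and Crnn +63 is the brightest row.

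Step by step, of the 44 regions with a D0 peak, 4 had none at W1 (9.09%, interval 3.59 to 21.2, all regions 12.9%), 8 at W2 (18.2%, interval 9.51 to 32.0, all regions 19.7%), 7 at W6 (15.9%, interval 7.93 to 29.4, all regions 19.0%) and 6 at W12 (13.6%, interval 6.40 to 26.7, all regions 16.3%). Loss from the complex was therefore near the share of all regions at each time. It was 29.5% at W6 with the common -log10 q minimum (all regions 36.8%) and 5.41% at W12 with a score of at least 5 (all regions 18.1%). Of the 33 regions without a D0 peak, 5 had one at W1 (15.2%, interval 6.65 to 30.9, all regions 20.7%), 16 at W2 (48.5%, interval 32.5 to 64.8, all regions 37.8%), 24 at W6 (72.7%, interval 55.8 to 84.9, all regions 66.9%) and 23 at W12 (69.7%, interval 52.7 to 82.6, all regions 54.1%). Gains were also within counting error of all regions at each step. With the common -log10 q minimum they were 16.7% at W2 (all regions 21%) and 94.4% at W12 (all regions 70.2%), so that the W2 share moved from above to below that of all regions. Where both lists had a peak, the median log2 ratio of scores to D0 was -0.09 at W1 (40 regions, all regions 0.07), 0.21 at W2 (36, all regions -0.01), -0.09 at W6 (37, all regions -0.07) and 0.06 at W12 (38, all regions -0.11). The sign at W2 and W12 turned when fold enrichment replaced the score.

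The S100a genes, which sit at both ends of the complex, were often accessible throughout. Of 33 S100a regions 20 were static, where all regions gave 37.8% and the difference was not tested, and 25, 24, 28, 30 and 30 had a peak at the 5 times in order. The region S100a6 +16604 (chr3:90629164-90629808, intergenic) scored 33.9, 35.2, 58.3, 44.9 and 65.5 in that order. By score it was higher in the graft than at D0, but its fold enrichment was not, with 17.5, 17.9, 17.2, 13.96 and 17.3. S100a2 -3831, beside a gene known from basal keratinocytes, scored 45.1, 48.1, 35.7, 30.6 and 36.5 at the same times and was lower from W2 on. S100a11 +10130 (chr3:93530206-93531031), between S100a11 and S100a10, scored 6.96, 7.92, 22.5, 23.5 and 17.2, so that W2 was 3.23 times D0 by score and 1.43 times by fold enrichment. S100a10 +572, at the gene for the annexin A2 partner, scored 24.9, 21.8, 41.4, 36.4 and 26.3.

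S100a8 and S100a9, whose products pair as calprotectin and are induced in stressed epidermis, gained peaks at their starts. S100a8 +90 (chr3:90668721-90669416, UTR) had none at D0 or W1 and scored 13.5 at W2, 17.9 at W6 and 5.26 at W12. S100a9 -178 (chr3:90695580-90696218) followed with 5.85, 16.3 and 4.20. Both were highest at W6. S100a7a +5108, beside the psoriasin-related gene, scored 6.86, 13.7 and 15.0 and stayed high in the graft. Myeloid cells also use S100a8 and S100a9, and in these lists the promoters of Ptprc, Lyz2, Cd207 and Cd3e had no peak at any time, while Cd74 scored 5.89 at D0, 3.92 at W6 and 8.45 at W12 and had none at W1 or W2. In the opposite direction, S100a4 -4186 scored 3.21 at D0 and 5.97 at W1 and then had no peak, and S100a14 +2319 scored 15.5 at D0, 7.57 at W1 and 9.29 at W12 with no peak between.

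The Sprr and Lce genes occupy the centre of the complex, and their peaks became more numerous with time, as did those of all regions. Of their 27 regions 8 had a peak at D0 and 6 were static. Of the 19 without a D0 peak, 2 had one at W1, 9 at W2, 14 at W6 and 13 in the graft, where all regions gave 20.7%, 37.8%, 66.9% and 54.1%. For the 15 Sprr regions the counts were 6, 7, 9, 11 and 12 over the 5 times, and for the 12 Lce regions 2, 3, 6, 9 and 7. Peaks within 1 kb of a Sprr start numbered 1, 1, 3, 5 and 4 from D0 to W12, while the share of all protein-coding genes with such a peak stayed between 56.0% and 58.6%. The difference of either family from all regions was not tested.

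Sprr3 and Lce3f carried the largest gains of these families. Sprr3 +3383 (chr3:92455066-92455609) had no peak at D0 or W1 and scored 6.86 at W2, 18.7 at W6 and 17.9 at W12. Lce3f -5311 (chr3:92986603-92987228) scored 7.91, 27.1 and 22.1 at these times. Both rose again between W2 and W6 and changed less between W6 and W12. Sprr1b, a cross-bridging envelope precursor that is induced in wounded epidermis, gained Sprr1b -72 at its start with 3.38, 12.3 and 7.98 and Sprr1b +2198 with 5.12, 6.04 and 4.90. Sprr2h -72 scored 3.97, 9.32 and 4.63. Among Lce1 genes, Lce1b +3051 scored 7.91, 8.06 and 6.44 and Lce1k -4703 scored 3.87, 7.35 and 6.16. Lce1f -110 scored 6.86 at W2 and 8.06 at W6 and had no peak at W12. Later gains were weaker, with 5.70 at W6 and 3.01 at W12 for Lce1d -4689, 4.26 and 3.79 for Sprr2d -158, and 3.54 and 3.20 for Lce3a +5656.

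**Figure D2:**
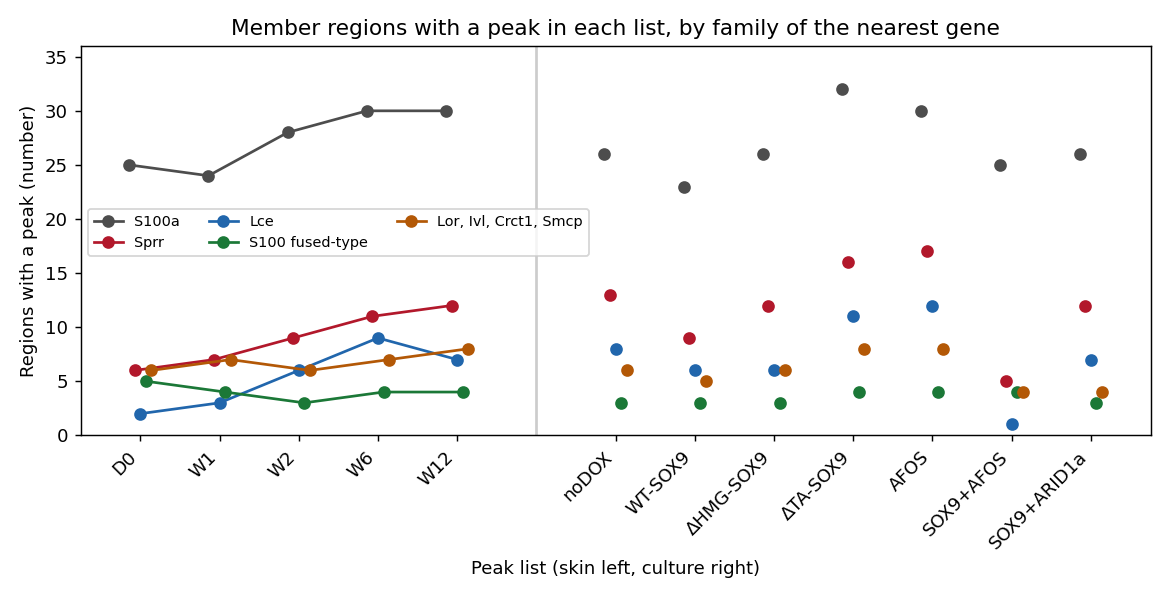
Number of member regions with a peak (vertical axis) in each list (horizontal axis, skin on the left and culture on the right), coloured by gene family. In skin the Sprr line goes from 6 at D0 to 12 at W12 and the Lce line from 2 to 7, and in culture both are lowest in SOX9+AFOS, at 5 and 1.

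A few Sprr and Lce regions were already open at D0 and some of these weakened. Sprr1a -349 (chr3:92485687-92486802) was high throughout, with 39.1, 43.01, 36.1, 32.2 and 45.0 over the 5 times. Lce6a +255 (chr3:92620875-92621935, UTR) scored 39.1 at D0 and 16.9, 22.9, 14.8 and 19.0 afterwards, and by score was lowest at W6 with D0 2.65 times higher. By fold enrichment, 16.3, 10.8, 12.7, 12.3 and 14.1, it was lowest at W1. Sprr4 -4656 scored 16.2, 11.5, 18.9, 16.3 and 23.6 and was highest in the graft. Sprr2a3 -4046 (chr3:92281136-92281607) fell through 23.96, 9.38, 8.45 and 3.92 by W6 and stood at 26.8 in the W12 graft. The D0 score was 6.12 times that of W6, and fold enrichment had the same low point, from 23.1 to 5.18. Lce1l -4597 (chr3:92855540-92856227) scored 15.6 at D0 and 14.2 at W1 and had no later peak, the highest D0 score among the 5 lost regions. Sprr1a -3131 was lost as well, from 4.95 and 5.79. Of the 6 suprabasal marker promoters, Krt10 scored 3.50, 10.9, 5.56, 3.23 and 6.82 over the 5 times, Sbsn scored 16.1, 24.5, 19.9, 13.6 and 21.2, and Krt1, Lor and Flg had no peak in any list. Krt10 and Sbsn were highest at W1 and lowest at W6, whereas the Ivl promoter was highest at W2. Among markers of other cell types, the promoters of the endothelial genes Pecam1, which encodes CD31, and Kdr scored higher when these gains appeared, although the sort removed CD31-positive cells: Pecam1 scored 9.21 at D0, had no peak at W1 and scored 38.3, 42.2 and 41.4 afterwards, Kdr scored 5.85 at W2 and 6.28 at W6 alone, and Cdh5 had no skin peak. In noDOX culture Pecam1 scored 39.4. Their part in the gains, and whether the share of differentiating cells in the sort changed, was not tested, and in bulk samples more cells of a type and more accessibility per cell cannot be told apart.

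Lor and Ivl differed from each other. Ivl -116 (chr3:92573506-92574197), at the involucrin promoter, scored 6.51 and 5.80 until W1, and then 26.4 at W2, 19.4 at W6 and 12.1 in the graft. The W2 score was 4.05 times that of D0, while its fold enrichment, 9.50, 6.51, 14.5, 10.8 and 9.20 over the 5 times, was 1.53 times that of D0 at W2 and 0.97 times at W12. The region Ivl -5655, a member through the window of the neighbouring Smcp gene, changed less, with 10.53, 16.3, 15.6, 14.6 and 14.7. Lor had no peak within 1 kb of its start in any list. Its single region, Lor +1872 (chr3:92080428-92082113), covered coding sequence and scored 19.3, 19.9, 13.7, 8.14 and 10.7, with D0 2.38 times W6 by score, while fold enrichment was 7.72 at D0 and 5.39 at W6.

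Among fused-type genes accessibility was concentrated at Crnn and Tchh. Crnn +63 (chr3:93144487-93145213), at the start of the cornulin gene, was the strongest member region at D0, with 90.6 and then 63.3, 74.2, 71.3 and 80.0. Tchh encodes trichohyalin, a structural protein of the hair follicle inner root sheath, and its regions were open before induction. Tchh +2325 scored 27.5, 24.7, 29.2, 22.3 and 27.0 and Tchh +5231 scored 24.9, 15.7, 29.0, 21.6 and 16.5, and neither moved in a single direction. At Flg the only skin peak was Flg +22858 at W12 with 3.01. Flg2 and Tchhl1 had no peak after W1, and Hrnr and Rptn had no skin region. Crct1 +1100 had a peak in all 5 skin lists, with 8.14, 5.55, 11.5, 15.5 and 7.53. Crct1 -45 appeared at W2 with 13.9 and then scored 5.72 and 5.28. Smcp, a gene best known from sperm mitochondria, had a region in every skin list, Smcp +2307, with 12.5, 13.5, 12.3, 8.15 and 11.5, lowest at W6 by score and by fold enrichment (10.8 at D0 and 5.63 at W6).

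In culture, the comparison asked what SOX9 did to the complex in EpdSCs, and what remained of it without the DNA-binding or transactivation domain, with AP1 blocked, or with added ARID1a. Of 21 Sprr and Lce regions with a noDOX peak, 19 lost it or had their score halved or lower in WT-SOX9 (90.5%, all regions 42.0%). The counts were 6 in ΔHMG-SOX9 (28.6%, all regions 24.5%) and 2 in ΔTA-SOX9 (9.52%, all regions 28.3%). The ΔHMG-SOX9 share was thus near that of all regions, and no difference was tested. Member peaks numbered 55 in noDOX, 46 in WT-SOX9, 54 in ΔHMG-SOX9, 72 in ΔTA-SOX9, 73 in AFOS, 43 in SOX9+AFOS and 61 in SOX9+ARID1a. Their median score was 14.6 in noDOX, where all peaks had 10.8, and 8.02 in WT-SOX9, where all peaks had 9.68. The other lists had member medians from 9.36 to 12.9.

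**Figure D3:**
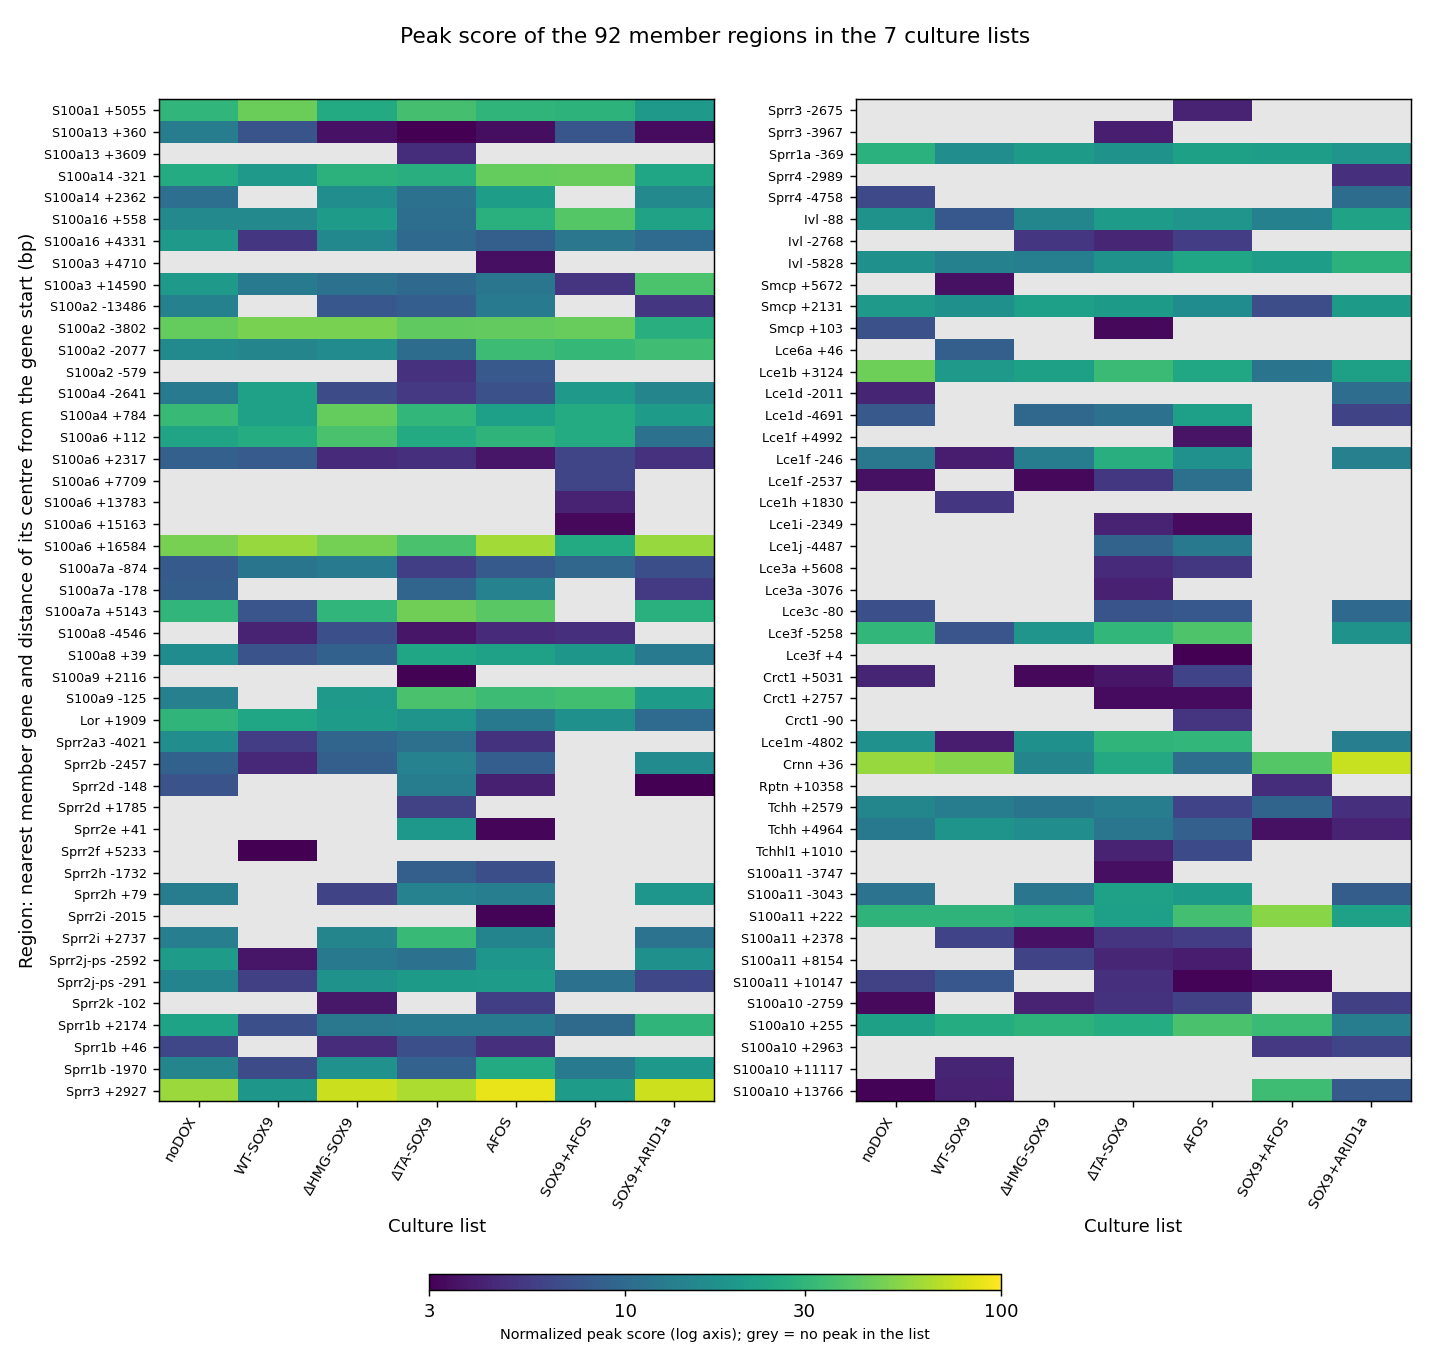
Normalised peak scores of the 92 culture regions, in chromosome order down the vertical axis and continued in the right panel, in the 7 culture lists on the horizontal axis. Colour gives the score on a log scale from 3 (dark) to 100 (yellow), and grey cells have no peak. In the Sprr and Lce rows with a noDOX peak the WT-SOX9 column is darker than noDOX or grey, and the SOX9+AFOS column is mostly grey.

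Of the 56 regions with a noDOX peak, 17 had none in WT-SOX9 (30.4%, interval 19.9 to 43.3, all regions 27.9%), 8 in ΔHMG-SOX9 (14.3%, interval 7.42 to 25.7, all regions 18.5%) and 3 in ΔTA-SOX9 (5.36%, interval 1.84 to 14.6, all regions 19.2%). The list labelled AFOS lacked 4 (7.14%, interval 2.81 to 17.0, all regions 17.3%), SOX9+AFOS 23 (41.1%, interval 29.2 to 54.1, all regions 34.9%) and SOX9+ARID1a 6 (10.7%, interval 5.004 to 21.5, all regions 20.5%). Closing in WT-SOX9 was thus near the share of all regions, and in ΔTA-SOX9 and AFOS below it with the whole interval. With no flank around the genes, SOX9+AFOS lacked 25.0%, below rather than above the 34.9% of all regions. No region closed in all 6 arms.

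Of the 36 regions without a noDOX peak, 7 opened in WT-SOX9 (19.4%, interval 9.75 to 35.03, all regions 31.4%), 5 in ΔHMG-SOX9 (13.9%, interval 6.08 to 28.7, all regions 17.7%), 18 in ΔTA-SOX9 (interval 34.5 to 65.5, all regions 32.1%), 19 in AFOS (52.8%, interval 37.0 to 68.0, all regions 34.6%), 6 in SOX9+AFOS (16.7%, interval 7.87 to 31.9, all regions 31.3%) and 2 in SOX9+ARID1a (5.56%, interval 1.54 to 18.1, all regions 28.8%). The intervals, which cover counting error alone, lay above all regions in ΔTA-SOX9 and AFOS and below them in SOX9+ARID1a. With a score of at least 5 asked of every peak, these shares were 31.8% in ΔTA-SOX9 (all regions 30.1%) and 18.2% in SOX9+ARID1a (all regions 29.0%).

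Scores also fell where a peak remained, so a further measure, added after the scores were seen, counted regions that closed or had their score halved or lower. It took in 31 of 56 in WT-SOX9, 17 closed and 14 halved (55.4%, interval 42.4 to 67.6, all regions 42.0%), 12 in ΔHMG-SOX9 (21.4%, interval 12.7 to 33.8, all regions 24.5%) and 8 in ΔTA-SOX9 (14.3%, interval 7.42 to 25.7, all regions 28.3%). The counts were 11 in AFOS (19.6%, interval 11.3 to 31.8, all regions 27.6%), 29 in SOX9+AFOS (51.8%, interval 39.0 to 64.3, all regions 46.2%) and 15 in SOX9+ARID1a (26.8%, interval 17.0 to 39.6, all regions 32.8%). WT-SOX9 lay above all regions and ΔTA-SOX9 below by the whole interval. With no flank around the genes, the SOX9+AFOS share fell below that of all regions. Where both lists had a peak, the median log2 ratio to noDOX was -0.39 in WT-SOX9 (39 regions, all regions -0.13), -0.06 in ΔHMG-SOX9 (all regions 0.00), 0.01 in ΔTA-SOX9 (-0.13), 0.08 in AFOS (-0.10), -0.38 in SOX9+AFOS (33 regions, all regions 0.00) and -0.23 in SOX9+ARID1a (-0.12).

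**Figure D4:**
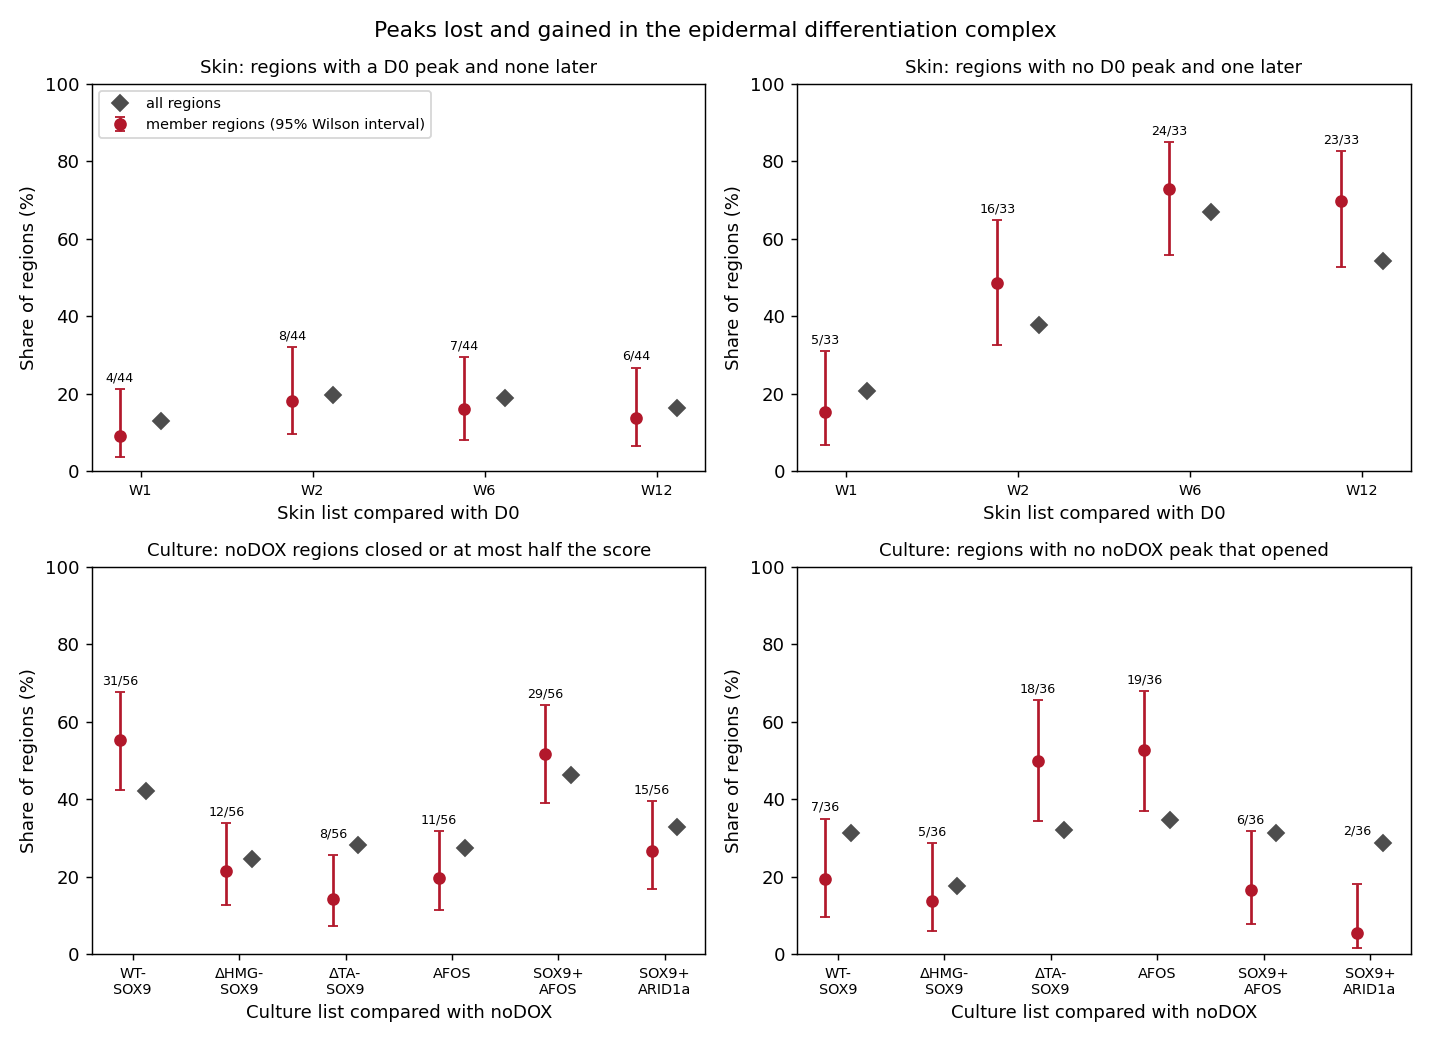
Share of regions in percent (vertical axes) for each list compared with D0 or noDOX (horizontal axes). Red points are member regions with 95% Wilson intervals and counts, and grey diamonds are all regions. The panels give skin peaks lost and gained, culture regions closed or halved, and culture regions opened. The closed or halved share is highest in WT-SOX9 (31 of 56) and SOX9+AFOS (29 of 56).

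The families parted in WT-SOX9 by the closed or halved measure, which was added after the scores were seen. By closing alone the counts were 9 of 21 Sprr and Lce regions and 6 of 26 S100a regions (all regions 27.9%). Of 21 Sprr and Lce regions with a noDOX peak, 19 closed or were halved (90.5%, interval 71.1 to 97.3), 9 of them closed and none of the 21 scored higher. All regions gave 42.0%. The same count was 9 of 26 for S100a regions (34.6%, interval 19.4 to 53.8), of which 10 scored higher, and 3 of 9 for the remaining genes. By family it was 11 of 13 for Sprr and 8 of 8 for Lce. In SOX9+AFOS it was 18 of 21 Sprr and Lce regions (85.7%, interval 65.4 to 95.02), with 15 closed, and 7 of 26 S100a regions (all regions 46.2%). In the other arms 6 of the 21 fell in ΔHMG-SOX9 (all regions 24.5%), 2 in ΔTA-SOX9 (28.3%), 3 in AFOS (27.6%) and 6 in SOX9+ARID1a (32.8%). The 2 families were put together after their values were seen, and the difference between families and arms was not tested.

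At the Sprr genes the strongest region was Sprr3 +2927 (chr3:92455142-92456444, the place of the skin region Sprr3 +3383). It scored 59.2 in noDOX, 19.1 in WT-SOX9, 75.6 in ΔHMG-SOX9, 64.7 in ΔTA-SOX9, 88.5 in AFOS, 20.8 in SOX9+AFOS and 76.6 in SOX9+ARID1a. WT-SOX9 and SOX9+AFOS were the only lists below noDOX, which was 3.11 times WT-SOX9. Sprr1b +2174 scored 22.9 in noDOX, 7.03 in WT-SOX9, 12.1, 12.8 and 12.6 in ΔHMG-SOX9, ΔTA-SOX9 and AFOS, 10.05 in SOX9+AFOS and 29.8 in SOX9+ARID1a. Only SOX9+ARID1a reached the noDOX level there. The Sprr1b promoter region Sprr1b +46 scored 6.30 in noDOX and had no peak in WT-SOX9, SOX9+AFOS or SOX9+ARID1a.

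Of 7 noDOX regions at Sprr2 genes 3 closed in WT-SOX9 and 6 in SOX9+AFOS, and of 6 at other Sprr genes 2 and 2 (all regions 27.9% and 34.9%). Sprr2i +2737 (chr3:92410338-92411118) scored 13.5 in noDOX, had no peak in WT-SOX9 or SOX9+AFOS, and scored 14.7 in ΔHMG-SOX9, 32.2 in ΔTA-SOX9, 14.7 in AFOS and 11.3 in SOX9+ARID1a. Sprr2h +79 (chr3:92385473-92386055) scored 13.1 in noDOX and also lacked a peak in these 2 lists, with 6.12, 14.2, 13.4 and 19.0 in the other 4. Its ΔHMG-SOX9 score was the lowest of those present. Sprr2j-ps -2592 kept a peak in WT-SOX9 at 3.72 against 20.7 in noDOX, a ratio of 5.56, and had none in SOX9+AFOS. Sprr2b -2457 went from 8.86 to 4.47 in WT-SOX9 and Sprr2j-ps -291 from 14.6 to 5.84, and the latter kept a peak in every culture list. Sprr2a3 -4021 went from 16.7 to 5.64 in WT-SOX9 and 5.03 in AFOS and had no peak in SOX9+AFOS or SOX9+ARID1a. Sprr2d -148 scored 7.34 in noDOX, 13.1 in ΔTA-SOX9, 4.07 in AFOS and 3.01 in SOX9+ARID1a, with no peak in WT-SOX9, ΔHMG-SOX9 or SOX9+AFOS. Sprr2e +41, at a start with no noDOX peak, scored 19.4 in ΔTA-SOX9 and 3.16 in AFOS. Sprr1a -369 fell least among the high regions, from 28.1 to 16.8 in WT-SOX9, with 18.0 to 21.9 in the other arms, and Sprr1a -369 was 1 of the 2 Sprr regions that stayed above the halved level in WT-SOX9.

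All 8 Lce regions with a noDOX peak closed or were halved in WT-SOX9 and in SOX9+AFOS. Lce1b +3124 (chr3:92653427-92654178) scored 46.3 in noDOX, 19.9 in WT-SOX9, 22.1 in ΔHMG-SOX9, 32.7 in ΔTA-SOX9, 24.6 in AFOS, 11.6 in SOX9+AFOS and 22.1 in SOX9+ARID1a, and was below noDOX in every arm. It was the single Lce region with a SOX9+AFOS peak. Lce3f -5258 (chr3:92986701-92987236) scored 30.4, 7.53, 18.7, 30.6 and 38.0 in noDOX, WT-SOX9, ΔHMG-SOX9, ΔTA-SOX9 and AFOS and 18.3 in SOX9+ARID1a, with noDOX 4.04 times WT-SOX9. Lce1m -4802 (chr3:93023521-93024204) followed with 17.6, 3.93, 17.5, 29.6, 30.8 and 13.4 in the same 6 lists, and Lce1f -246 with 12.2, 3.91, 13.2, 27.3, 17.8 and 13.7. In both the ΔTA-SOX9 and AFOS scores stood above noDOX. Lce1d -4691 scored 7.94 in noDOX and had no peak in WT-SOX9 or SOX9+AFOS, against 21.8 in AFOS. Lce1j -4487 was open only in ΔTA-SOX9 (9.15) and AFOS (12.3). Against this direction, Lce6a +46 at 8.64 and Lce1h +1830 at 5.24 were open in the WT-SOX9 list and in no other culture list.

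The 7 regions that opened in WT-SOX9 were weak. Besides these Lce regions, Sprr2f +5233 at 3.04, Smcp +5672 at 3.51 and S100a10 +11117 at 4.29 were open in WT-SOX9 alone among culture lists. S100a11 +2378 scored 6.11 in WT-SOX9, 3.56 in ΔHMG-SOX9, 5.06 in ΔTA-SOX9 and 5.68 in AFOS. S100a8 -4546, upstream of S100a8, scored 4.25 in WT-SOX9 and was highest in ΔHMG-SOX9 at 7.05. The 2 regions shared with other arms were therefore open with either SOX9 domain missing as well.

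S100a regions moved both ways. S100a7a +5143 (chr3:90658805-90659515) was also low in WT-SOX9 and missing in SOX9+AFOS, with 30.3 in noDOX, 7.56 in WT-SOX9, 30.0 in ΔHMG-SOX9, 46.6 in ΔTA-SOX9, 40.5 in AFOS, no peak in SOX9+AFOS and 27.7 in SOX9+ARID1a. S100a9 -125 (chr3:90695564-90696128) closed in WT-SOX9 alone, from 13.8, and scored 19.6, 36.5, 33.3, 34.6 and 20.7 in the 5 other arms. S100a8 +39 went from 16.4 to 7.37 in WT-SOX9 and stood at 8.91, 23.8, 22.2, 19.3 and 12.6 in the others. At these calprotectin genes SOX9+AFOS was above noDOX, unlike at Sprr and Lce genes. S100a11 -3043 and S100a14 +2362 closed in WT-SOX9 and SOX9+AFOS, from 11.4 and 10.7. S100a16 +4331 fell from 19.7 to 5.24 in WT-SOX9, and 12.1 was its SOX9+AFOS score. Other S100a regions kept or raised their height: S100a6 +16584 scored 48.6 in noDOX and 57.9 in WT-SOX9, with the lowest value, 25.6, in SOX9+AFOS. S100a2 -3802 was the highest S100a region of the WT-SOX9 list outside S100a6, with 49.5 against 43.4 in noDOX. S100a11 +222 at the promoter scored 29.3 and 29.5 in these first lists and 53.6 in SOX9+AFOS. S100a10 +13766 scored 3.11 in noDOX, 4.16 in WT-SOX9, 33.5 in SOX9+AFOS and 7.98 in SOX9+ARID1a, so that its SOX9+AFOS score was 10.8 times that of noDOX.

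Among the remaining genes, the Ivl promoter region Ivl -88 (chr3:92573466-92574181) scored 18.2 in noDOX and 7.87 in WT-SOX9, and 15.0, 20.5, 18.7, 13.9 and 22.5 in the other arms. WT-SOX9 was the lowest list there. The upstream region Ivl -5828 did not share this fall, with 17.4 and 13.97. Lor +1909 scored 29.7 in noDOX, 23.8 in WT-SOX9, 20.5, 18.4, 12.3 and 17.4 in the next 4 arms and 10.2 in SOX9+ARID1a. The Crnn start Crnn +36 went another way: 58.4 in noDOX, 53.0 in WT-SOX9, 14.7 in ΔHMG-SOX9, 24.9 in ΔTA-SOX9, 10.499 in AFOS, 39.7 in SOX9+AFOS and 74.6 in SOX9+ARID1a. Its lowest scores were in ΔHMG-SOX9, ΔTA-SOX9 and AFOS. Tchh +2579 scored 15.1 in noDOX and 13.3 in WT-SOX9, and 6.09, 9.32 and 4.86 in AFOS, SOX9+AFOS and SOX9+ARID1a. Smcp +2131 scored 19.7 in noDOX and 17.5 in WT-SOX9, with 6.85 in SOX9+AFOS the single low value. Crct1 +5031 had a noDOX peak and none in WT-SOX9, SOX9+AFOS or SOX9+ARID1a. Tchhl1 +1010 was open only in ΔTA-SOX9 and AFOS. Flg, Flg2 and Hrnr had no culture region, and Rptn +10358 was open only in SOX9+AFOS, at 4.72.

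Some regions that appeared in skin were lower with SOX9 in culture. Of 15 member regions, in the union of all 12 lists, that lacked a peak at D0 and had one at W2, 10 had a noDOX peak (66.7%, interval 41.7 to 84.8, all regions 28.1%). Of these 10, 3 had no peak in WT-SOX9 (30.0%, interval 10.8 to 60.3, all regions 24.5%), and by the measure added later all 10 closed or were halved (100%, interval 72.2 to 100, all regions 38.5%). They were S100a7a +5143, S100a8 +86, S100a9 -170, Sprr2h +19, Sprr1b +2174, Sprr1b +22, Sprr3 +2965, Lce1b +3124, Lce1f -246 and Lce3f -5307. The remaining 5 of the 15 had no noDOX peak. The skin side of this pattern was fixed by how the regions were picked. It rests on absence from the D0 list, whose lowest -log10 q is 14.5: at W2 the -log10 q was below that value in 9 of the 10 regions, from 4.95 upwards, and at W6 in 1 of the 10. With that minimum in every skin list, a W2 peak where D0 had none was found at 16.7% of such member regions and at 21% of all such regions. Skin and cultured EpdSCs differ in exposure time, surroundings and construct, which cannot be told apart.

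**Figure D5:**
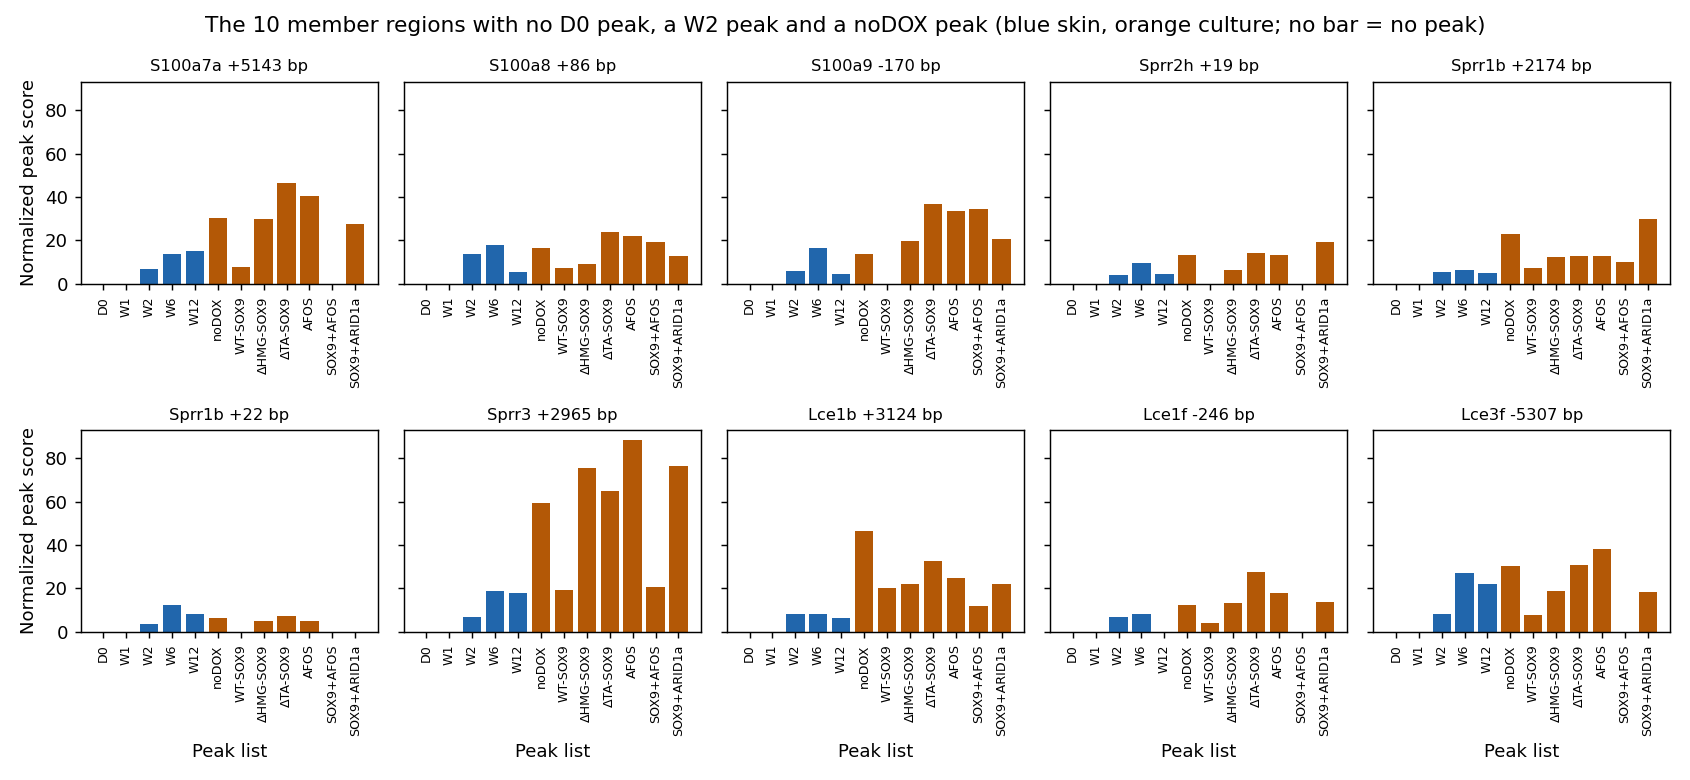
Normalised peak score (vertical axes, linear from 0) of the 10 regions without a D0 peak and with W2 and noDOX peaks, 1 panel per region, in the 12 lists on the horizontal axes. Blue bars are skin lists, orange bars culture lists, and no bar means no peak. In all 10 panels skin bars begin at W2 and the WT-SOX9 bar is missing or lower than the noDOX bar.

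More widely, of 23 member regions without a D0 peak and with a noDOX peak, 13 had a peak at W6 (56.5%, interval 36.8 to 74.4, all regions 38.5%) and 12 had none in WT-SOX9 (52.2%, all regions 46.3%). Of 30 regions with a peak at D0, W2 and noDOX, 2 had none in WT-SOX9 (6.67%, all regions 13.6%). A peak in all 12 lists was found at 25 of 107 member regions (23.4%, all regions 14.1%), in skin lists alone at 15 (14.02%, all regions 27.9%) and in culture lists alone at 35 (32.7%, all regions 29.1%). Sprr2j-ps -291 (chr3:92417309-92418274) was the single region open in every culture list, from 5.84 in WT-SOX9 to 20.7 in AFOS, with no skin peak. Regions found in a single list numbered 24 of 107 (22.4%, all regions 23.5%) and scored at most 7.66.

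The motif letters were searched in the central 200 bp of each region. An AP1 match was present in 18 of 107 member regions (16.8%, all regions 19.4%), CEBP in 13 (12.1%, all 9.95%), RUNX in 14 (13.1%, all 16.5%), GATA in 11 (10.3%, all 10.7%), SOX in 8 (7.48%, all 6.07%) and KLF in 6 (5.61%, all 5.25%), and GRHL in 0 (all regions 0.177%). By family AP1 letters were in 6 of 26 Sprr, 5 of 19 Lce and 5 of 42 S100a regions. Member regions that closed or were halved in WT-SOX9 had an AP1 match in 8 of 31 cases (25.8%, all such regions 30.5%) and those that did not in 2 of 25 (all such regions 15.3%). In skin, static member regions had AP1 letters in 9 of 34 (26.5%, all static regions 15.8%), and the 12 gained by W2 and kept had them in 4 and SOX letters in 0 (all such regions 26.9% and 12.2%). These are matches to letters and not binding sites.

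Other genes of the cornification programme were read in the same way, with a region near a pair of such genes counted for each. For 6 further genes within the complex, 16 skin regions included 6 with a D0 peak, 2 of which had none at W2, and 7 that gained a W2 peak. In culture 3 of their 7 noDOX regions closed in WT-SOX9, 2 in ΔTA-SOX9 and 1 in each of the other 4 arms. For 18 programme genes elsewhere in the genome, 106 skin regions included 64 with a D0 peak, 9 of which had none at W2, and 18 that gained one. All regions lost 19.7% of D0 peaks at W2 and gained one at 37.8% of places without. In culture 22 of their 59 noDOX regions closed in WT-SOX9, 19 in SOX9+AFOS, 11 in SOX9+ARID1a, 10 in ΔTA-SOX9, 8 in ΔHMG-SOX9 and 8 in AFOS. All regions closed in 27.9% of cases in WT-SOX9, 34.9% in SOX9+AFOS and 17.3% to 20.5% in the other arms.

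The 5 kb limit passed through a few regions of interest. S100a6 +16604 and Lce3f -5311 lay just inside, at 4983 and 4990 bp from the gene body. Just outside, a region 5064 bp from Ivl scored 3.04 in WT-SOX9, 3.09 in ΔTA-SOX9 and 5.36 in AFOS, a region 5127 bp from Lce1l scored 7.29 in ΔTA-SOX9 and 9.59 in AFOS, and a region 5264 bp from Lce3f had a peak in 10 lists with a highest score of 12.9.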

How the data were processed

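ATAC-seq of 24 samples in 12 groups was read from 1 deposited peak list per group. According to the submitters' processing notes and the methods of the study, the authors ran the PEPATAC pipeline with Bowtie2 (version 2.2.9), Picard (2.3.0), SAMtools (1.9), MACS2 (2.1.1) and deepTools (2.5.4) on GRCm38, merged 2 replicates before peak calling, kept duplicate reads and removed peaks under a normalised score of 3. The deposited score appears to be scaled to a common total per list, which was inferred from the values. The authors' 5 skin lists also hold fold enrichment (a ratio), the −log10 q of each peak and its summit offset. Lowest −log10 q values differed between skin lists (14.5, 9.37, 4.21, 5.74 and 10.1 from D0 to W12). Merging before calling removes replicate spread, and read depth is not known.

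Peaks overlapping by 1 bp were merged into regions within skin, within culture and over all 12 lists (Python 3.11.15, pandas 2.3.3, numpy 2.4.6, SciPy 1.17.1, pysam 0.24.0, matplotlib 3.10.9). A region's score in a list is its highest peak score. Genes came from GENCODE M21, sequence from RefSeq GRCm38.p6. Presence was compared between lists, shares were given 95% Wilson intervals and set beside all regions, and no test was made. Marker promoters were within 1 kb of a start. The text names each gene that is no Sprr, Lce or S100a gene, the 3 highest-scoring regions of each skin class, of those closed or opened in WT-SOX9 and of each of these families, and others that were chosen after their values were seen. Peak names in the lists labelled AFOS, SOX9+AFOS and SOX9+ARID1a record fragments as input, unlike the rest. The members, gene lists and motif letters were chosen with earlier results of these data known. Scripts were tested on simulated data. Alternatives were the flank (0 or 20 kb), a score of at least 5, a common −log10 q minimum, equal list lengths, peaks cut to 500 bp, fold enrichment and lists left out.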

Additional observations from a re-analysis of the deposited data

Results flagged for a closer look

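One pattern concerned regions picked for a gain in skin and then read by score in culture. Picked were the 10 member regions that lacked a D0 peak, had one at W2 in skin and had a noDOX peak in culture. All 10 were closed or halved in WT-SOX9 culture (all regions 38.5%), by a measure added after the scores were seen. Without halving, 3 of the 10 closed (30.0%, all regions 24.5%). Their gain in skin follows from how they were picked. At W2 the −log10 q of 9 of the 10 was below 14.5, the lowest value in the D0 list, and a missing D0 peak is not a closed site. The difference between the systems was not tested, because each group is a single merged list, and no explanation was examined.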

How the results depend on the processing

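No paired analysis was possible because the replicates of each group were merged into a single list, and for the same reason no replicate could be left out. For 42 results, 195 values were computed under other settings: 179 stayed within the counting interval, or the band set for medians, and 16 moved beyond it. With no flank, the static share was 57.5%, the share of D0-absent regions with a W6 peak 92.3%, closing in ΔTA-SOX9 0%, closing in SOX9+AFOS 25.0%, and closing or halving in SOX9+AFOS 37.5%. The flank does not change the shares of all regions, which were 37.8%, 66.9%, 19.2%, 34.9% and 46.2% in that order. Both SOX9+AFOS shares moved from above to below all regions. With a score of at least 5, loss by W2 was 1.64%, loss at W12 5.41%, opening in ΔTA-SOX9 31.8% and opening in SOX9+ARID1a 18.2%. With a common −log10 q minimum, gain by W2 and kept was 1.61%, gain after W2 14.5%, a W2 peak where D0 had none 16.7%, loss at W6 29.5% and a W12 peak where D0 had none 94.4%. With fold enrichment in place of the score, the median log2 ratio was -0.16 from D0 to W2 and -0.19 from D0 to W12, opposite in sign to the 0.21 and 0.06 by score. The cause of these moves was not tested. Equal list lengths, a 20 kb flank, peaks cut to 500 bp and leaving out the W1 list, or the lists labelled AFOS, SOX9+AFOS and SOX9+ARID1a, moved no result they were applied to. The alternatives for closing or halving were chosen after seeing the data. Unknown depth limits every missing peak.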
